A study of Drosophila mojavensis with 137 samples.

Results

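The 44 transcripts described here are female-biased transcripts of Drosophila mojavensis whose level was higher in mated than in virgin females of 1 of its populations. They were taken from the 14528 transcripts of the array by measured values. The sex difference was the mean of all virgin female arrays minus the mean of all virgin male arrays, and it had to lie above 2 and at or below 4 on the log2 scale. The mating difference was mated minus virgin females from Punta Prieta, averaged over the 2 rearing cacti, and it had to reach 0.15 on the log2 scale. The sex criterion alone held 288 transcripts. Of these, 116 fell by at least 0.15 in the same mating difference and 128 lay between the 2 bounds, and these serve below for comparison. No file pairs an ID with a name, and a look-up of the array's 14528 IDs in a reference table of 15130 genes found 0 of them. The members are therefore given by ID, and their roles are not known here.

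Mating changes the physiology of a Drosophila female: sperm and seminal fluid proteins reach the reproductive tract, egg production and egg laying go up and receptivity to other males goes down. Transcripts that are much higher in whole females than in whole males come to a large extent from the ovary, with further ones from the reproductive tract and the fat body. Drosophila mojavensis feeds and breeds in rotting columnar cacti of the Sonoran Desert region and Baja California, and populations of the 2 areas use different host cacti.

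RNA came from whole wild-type flies, so a change in the number of cells of a type and a change in RNA per cell cannot be told apart. The 137 one-colour NimbleGen arrays, on which each transcript is read by synthetic DNA probes, covered 2 populations, Las Bocas in Sonora (stock LB09) and Punta Prieta in Baja California (stock PP08). Flies were raised on fermented Agria or Organ pipe cactus, were virgin or mated, and had taken 14 to 18 days from egg to adult. Las Bocas flies from agria gave 6 arrays of mated females, 11 of virgin females, 5 of mated males and 13 of virgin males. Las Bocas flies from organ pipe gave 2, 8, 1 and 13 arrays in the same order. Punta Prieta flies gave 5, 11, 5 and 12 arrays from agria and 7, 12, 11 and 15 from organ pipe. The sources used here give neither the time since mating nor the number of flies per array, nor whether replicates were separate cultures, so p-values measure the spread between these arrays only. All levels are deposited log2 values, and all differences are on the log2 scale.

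Some arrays stood apart. A sex score was computed from other transcripts with a sex difference beyond 2 in either direction, the falling and steady transcripts among them. By that score, 2 arrays had the profile of the opposite sex, a Las Bocas organ pipe mated female array and a Punta Prieta organ pipe mated male array, both of 16 days, and they were left out of every value below unless said otherwise. The sex scores of the other 61 female arrays ran from 1.92 to 3.86, and 4 of them lay at 1.92 to 2.32, below the 2.6 of the next. These 4 were 3 of the 6 Las Bocas agria mated female arrays (replicate 1 at 14 days and both replicates at 15 days) and 1 array of Punta Prieta virgin females from agria. They also had the narrowest spread of the female arrays used, with an SD over all transcripts of 1.6 to 1.65, against 1.68 on the next. Since the falling and steady lists are part of the score, their values without these 4 arrays are no independent check. The descriptions of 3 arrays contradict their titles, and 1 of these is the only mated Las Bocas organ pipe female array in use, which has a female profile but is described as virgin males from Punta Prieta.

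The values that chose the members can only be described. The mating difference in Punta Prieta females had a median of 0.71 and a maximum of 2.05 over the 44 members, and the sex difference had a median of 2.51. On agria alone the mating difference ran from 0.01 to 2.09, and on organ pipe alone from -0.02 to 2.0. It was positive on both cacti for 43 members and at least 0.15 on both for 35, and 24 members had the larger value on agria. The lowest sex difference among members was 2.02 and the next value outside the bound 1.95, the highest was 3.97 with 4.04 next outside, and the lowest mating difference was 0.151 with 0.15, which lay under the bound before rounding, next outside. The largest mating differences belonged to FBtr0168945 (2.05) and FBtr0167058 (2.04). FBtr0168945 had levels of 12.38, 13.22 and 13.92 (lowest, median and highest) on the 5 mated Punta Prieta agria arrays and of 9.57, 11.32 and 12.5 on the 11 virgin ones, so that the groups overlapped narrowly. In Punta Prieta, every mated array lay above every virgin array for 7 members on agria, against 0.757% of all transcripts, and for 4 on organ pipe, against 0.11%, but the rule had used these arrays.

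The Las Bocas females were not used by the rule for the mating difference. The mean level of the 44 members on the 6 mated Las Bocas agria arrays was 12.39, 12.55 and 12.68 (lowest, median and highest), and on the 11 virgin arrays it was 11.64, 11.99 and 12.79. The mated arrays lay within a narrow band near the top of the virgin range and did not leave it. The virgin arrays that reached this band were replicates 1 and 2 of 16 days, at 12.65 and 12.79. The next highest virgin array read 12.19. In the same arrays the mean of the 116 falling transcripts was 12.28 ± 0.333 (SD, n = 6) in mated and 12.68 ± 0.271 (SD, n = 11) in virgin females. Without the low arrays the mated mean of the falling transcripts was 12.51 ± 0.322 (SD, n = 3). The mean of the 128 steady transcripts was 12.34 ± 0.325 (SD, n = 6) in mated and 12.64 ± 0.198 (SD, n = 11) in virgin females, and 12.59 ± 0.21 (SD, n = 3) in mated females without the low arrays. The mean of the members was 12.54 ± 0.095 (SD, n = 6) in mated and 12.04 ± 0.393 (SD, n = 11) in virgin females, and 12.59 ± 0.087 (SD, n = 3) in mated females without the low arrays.

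**Figure D1:**
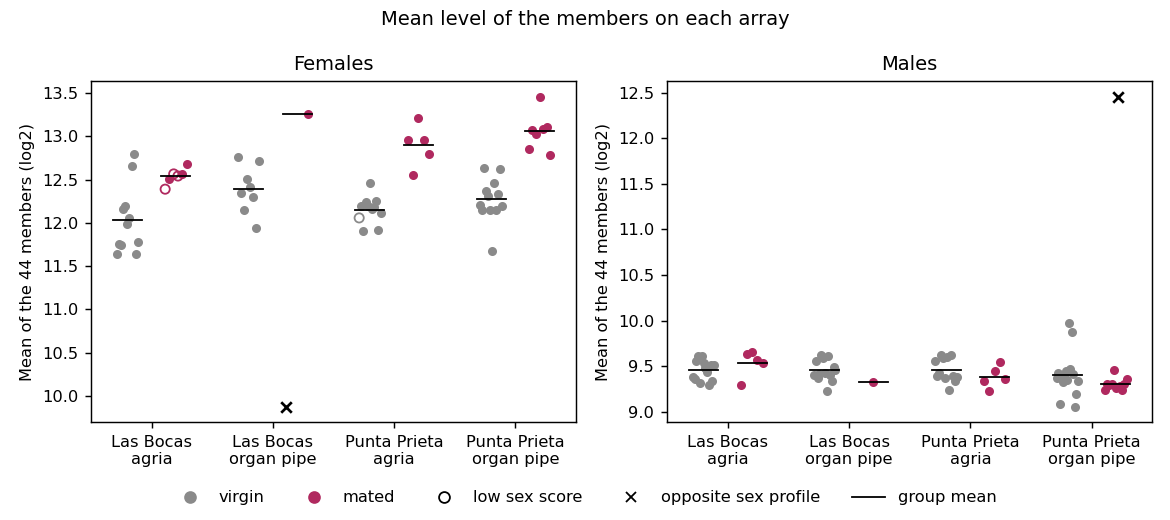
Mean log2 level of the 44 members on each array, females on the left and males on the right, by population and rearing cactus; points are arrays, lines are means of the arrays used, open points are the 4 female arrays of low sex score and crosses are the 2 arrays of opposite sex profile. Mated females of Las Bocas agria lie between 12.39 and 12.68, inside the virgin range of 11.64 to 12.79, and the male arrays used lie between 9.06 and 9.97.

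In the fit over 135 arrays (limma with Benjamini-Hochberg adjustment over all 14528 transcripts, threshold 0.05), 21 of the 44 members rose in mated Las Bocas agria females, 2 fell and 21 did not pass the test. Of all transcripts 19.3% were called higher and 23.8% lower in this comparison. The median difference of the members was 0.48, against -0.05 over all transcripts, -0.35 over the 116 falling transcripts and -0.25 over the 128 steady ones. No falling transcript (0) and no steady transcript (0) was called higher, and 79 and 61 of them were called lower. Both counts fell to 0 without the 4 arrays of low sex score, but these lists are part of that score. The difference was positive for 31 of the 44 members.

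Leaving out the 4 arrays of low sex score also takes the mated Las Bocas agria group from 6 to 3 arrays. Without them, 6 members were called higher and 0 lower, while 0.158% of all transcripts were called higher and 0.0138% lower. All 6 were among the 21. The median difference of the members was then 0.3, against -0.01 over all transcripts, -0.15 over the falling and -0.05 over the steady ones, and by plain means 40 of the 44 members were higher in mated females. The adjusted p also depends on the p-values of all transcripts. Of these, 2800 were called higher and 3463 lower with the low arrays, and 23 and 2 without. Some members lost their call with nearly the same difference, a larger standard error and this changed adjustment. An example chosen after its values were seen is FBtr0162041, at 1.19 (SE 0.26, limma adjusted p = 0.000734) with and 1.15 (SE 0.338, adjusted p = 0.313) without the low arrays. In other members the difference itself shrank. FBtr0166497, also chosen after its values were seen, went from 0.79 (SE 0.325, limma adjusted p = 0.0422) to 0.04 (SE 0.407, adjusted p = 0.998). The profile of the low arrays, the smaller number of arrays and the changed adjustment cannot be told apart in the lost calls.

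The member with the largest fitted difference was FBtr0168945. Its level on the 6 mated Las Bocas agria female arrays was 11.88, 12.94 and 13.77 (lowest, median and highest), and on the 11 virgin arrays 9.15, 11.32 and 12.42. The groups overlapped, since 3 virgin arrays, all of 16 days, lay above the lowest mated array, one of low sex score. The fitted difference was 1.95 (SE 0.326, limma adjusted p = 1.97e-05), and 1.78 (SE 0.415, adjusted p = 0.0269) without the low arrays. The single mated Las Bocas organ pipe array read 13.85, against 9.32, 10.45 and 12.72 on the 8 virgin arrays.

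FBtr0162051 was next, at 12.91, 13.55 and 14.29 on the mated and 10.47, 11.92 and 13.14 on the virgin Las Bocas agria arrays. The lowest mated array, one of low sex score, lay below 2 virgin arrays, and the next mated array was level with the highest virgin one. Its fitted difference was 1.76 (SE 0.299, limma adjusted p = 2.22e-05), and 1.57 (SE 0.381, adjusted p = 0.0468) without the low arrays. FBtr0168501 read 13.47, 13.9 and 14.42 on the mated and 11.28, 12.13 and 13.63 on the virgin arrays, where the 2 highest virgin values, 13.63 and 13.41, stood well above the other 9. It kept the smallest adjusted p of the members without the low arrays, with a difference of 1.69 (SE 0.26, limma adjusted p = 1.58e-05).

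**Figure D2:**
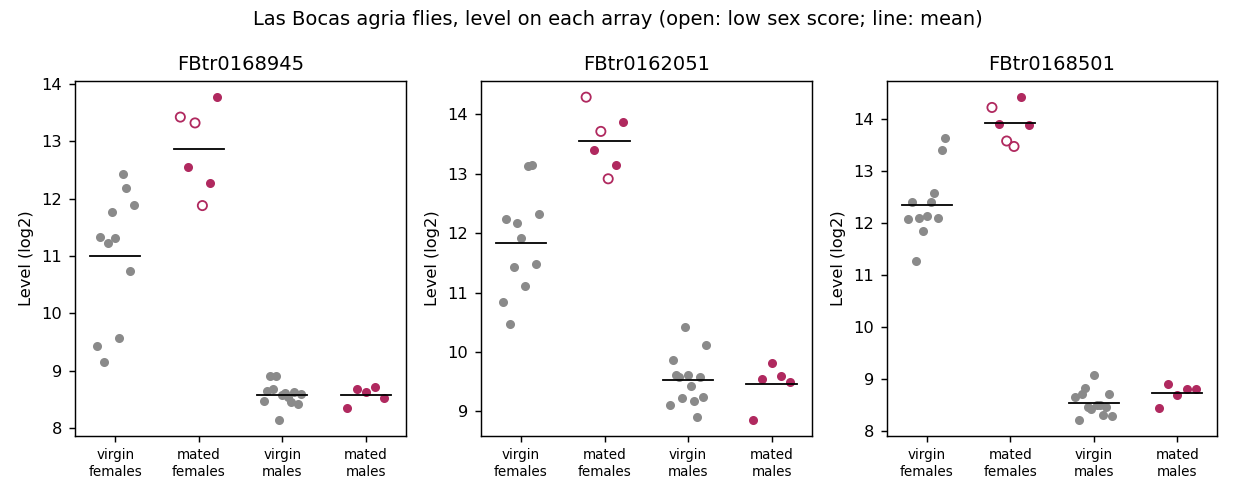
Log2 level of FBtr0168945, FBtr0162051 and FBtr0168501 on each Las Bocas agria array, by sex and mating state; points are arrays, open points have a low sex score and lines are group means. Mated females average 13.55 for FBtr0162051 and 13.92 for FBtr0168501 and virgin females 11.84 and 12.36, while mated and virgin males overlap throughout.

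The 2 members called lower were FBtr0174352 and FBtr0167449. FBtr0174352 read 11.25, 11.9 and 12.85 on the mated and 11.97, 12.54 and 12.93 on the virgin Las Bocas agria arrays, and the 3 mated arrays below every virgin array (11.25, 11.41 and 11.46) were the 3 of low sex score. Its fitted difference was -0.5 (SE 0.16, limma adjusted p = 0.0114), and 0.01 (adjusted p = 0.998) without the low arrays. FBtr0167449 read 11.58, 12.17 and 12.55 on the mated and 11.78, 12.54 and 12.78 on the virgin arrays. Its difference was -0.28 (SE 0.115, limma adjusted p = 0.0382), and -0.05 (adjusted p = 0.998) without the low arrays.

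The members were also grouped by the size of their mating difference in Punta Prieta, beside the 19.3% of all transcripts called higher in Las Bocas agria females and the 0.158% without the low arrays. Of the 16 members with a Punta Prieta difference of 0.15 to 0.5, 3 had a positive difference in Las Bocas agria females, 0 were called higher and the median was -0.21. Without the low arrays this direction turned, with 13 of the 16 positive, a median of 0.06 and 0 called. Of the 16 between 0.5 and 1, all 16 were positive, 10 were called higher and the median was 0.57, and without the low arrays 15 were positive, 0 were called and the median was 0.55. Of the 12 at 1 or more, all 12 were positive, 11 were called and the median was 1.33, and without the low arrays all 12 were positive, 6 were called and the median was 1.2. Across the 44 members the 2 populations' plain differences had a Pearson r of 0.895, a description only, since the members share arrays and were selected on 1 of the axes.

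**Figure D3:**
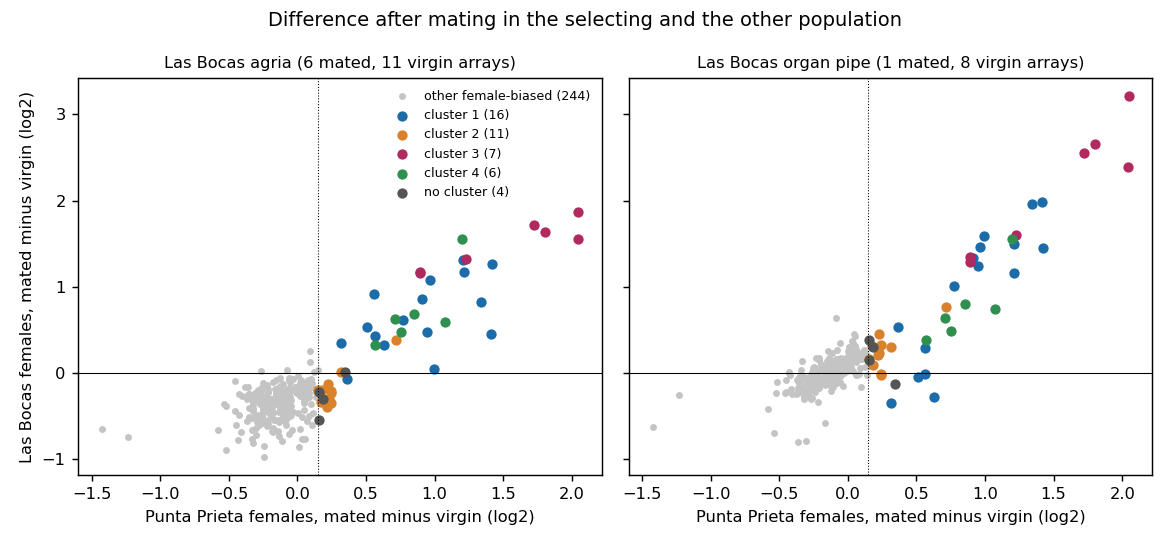
Mated minus virgin difference (log2) in Las Bocas females against that in Punta Prieta females for the 44 members, coloured by cluster, and the other 244 female-biased transcripts in grey; the dotted line is the bound of 0.15 in the rule. On the left, for agria (6 mated and 11 virgin arrays), members above 1 on the horizontal axis all lie above 0 and many of those below 0.5 lie under it; on the right is organ pipe (1 mated and 8 virgin arrays), with no replicate of the mated array.

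The single mated Las Bocas organ pipe female array gives no test. Of the 44 members, 37 were higher on it than the mean of the 8 virgin arrays, with a median difference of 0.58, against 0.03 over all transcripts, -0.08 over the falling and 0.07 over the steady ones. It lay above all 8 virgin arrays for 26 members, against 6.96% of all transcripts, and below all 8 for 0 members, against 4.21%. For the steady transcripts it lay above all 8 virgin arrays in 7 of 128, and for the falling ones in 0 of 116. The mean of the members was 13.26 on that array and 11.94, 12.38 and 12.77 on the virgin arrays. The contradictory description of the array bears on all of these values.

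The 44 members did not vary as 1 group. Among the 42 virgin female arrays, after taking out the means of population and cactus, the 946 pairs of members had a median Pearson r of 0.136, with the 5th percentile at -0.48 and the 95th at 0.86. Average linkage on these correlations, separated at a distance of 0.5, gave 4 clusters of at least 5 members (16, 11, 7 and 6) and left 4 members in none. These clusters were made from the values and therefore get no test, and calls counted within a cluster are not separate results. Their median correlations within a cluster, in the same order, were 0.81, 0.64, 0.75 and 0.6 in virgin females. In the 18 mated female arrays of the 3 groups with replicates, which the clustering did not use, they were 0.7, 0.71, 0.72 and 0.48, and in the 53 virgin male arrays 0.44, 0.21, 0.45 and 0.56. The 18 mated arrays include the 3 of low sex score, and correlations without these were not computed. The first and the fourth clusters varied against each other, with a median r of -0.44 in virgin and -0.28 in mated females. All these points share arrays and normalisation.

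**Figure D4:**
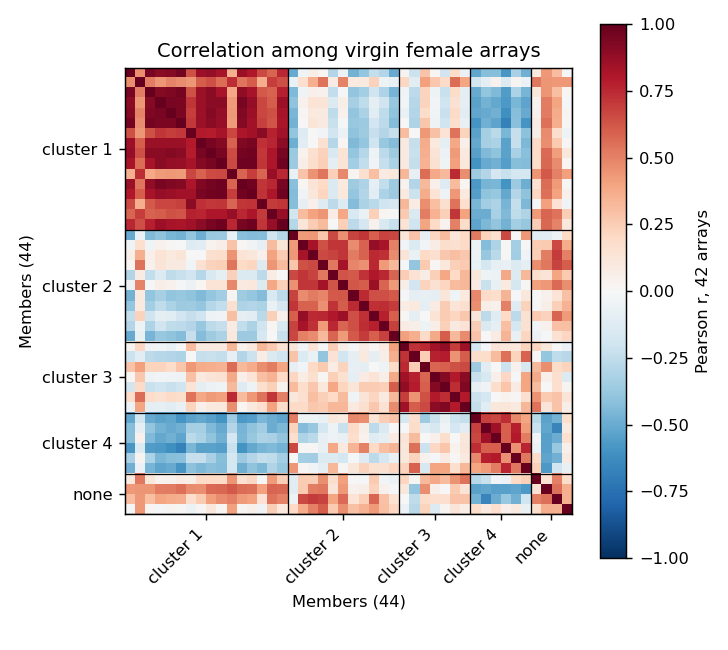
Pearson r between the 44 members over 42 virgin female arrays, after removing the mean of each population and cactus, ordered by cluster; red is positive and blue is negative. The 4 blocks on the diagonal are the clusters of 16, 11, 7 and 6 members, and the blue fields mark the negative correlations between the first and the fourth (median -0.44).

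The third cluster, 7 members including FBtr0168945 and FBtr0162051, had the largest mating differences. Its median was 1.73 in Punta Prieta, 1.61 in Las Bocas agria and 2.39 in Las Bocas organ pipe. All 7 were called higher in Las Bocas agria females, where 19.3% of all transcripts were, and 5 of 7 without the low arrays, against 0.158%. Its members varied together, with a median r of 0.75 in Las Bocas virgin females, so these counts are not separate results. The mean of the cluster was 13.03, 13.49 and 13.88 on the 6 mated and 11.01, 12.03 and 12.92 on the 11 virgin Las Bocas agria arrays, and the 2 groups did not overlap. Every mated array was above every virgin array for 4 single members in Las Bocas agria females, all of this cluster, against 0.158% of all transcripts. With the 3 mated arrays of usual sex score alone, this held for 6 of all 44 members, not split by cluster, against 0.227%. The cluster mean was 14.19 on the mated Las Bocas organ pipe array and 12.94 on the highest virgin one.

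The first cluster, with 16 members, was the most variable among virgin females: its members' median SD within groups was 0.78, against 0.28, 0.71 and 0.31 in the other clusters in order, 0.4 over all members, 0.25 over the falling and 0.23 over the steady transcripts. Its mating difference had a median of 0.93 in Punta Prieta and 0.57 in Las Bocas agria females, where 8 of 16 were called higher. Without the low arrays 0 of 16 were called, and the median was 0.31. The mean of the cluster ran from 10.22 to 13.17 over the 11 virgin Las Bocas agria arrays, and the lowest and the highest pairs were both from flies of 16 days. Replicate 2 of that group read 13.17 with replicate 1 just below it, replicates 3 and 4 read 10.23 and 10.22, and the 6 mated arrays, from 11.97 to 12.83, lay between them. The fourth cluster went the other way in those 4 arrays, at 12.64 and 12.51 in replicates 1 and 2 and at 13.47 and 13.61 in replicates 3 and 4. Replicate 3 of that group is the array whose description gives 15 days.

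The fourth cluster, 6 members including FBtr0168501, had a median mating difference of 0.8 in Punta Prieta and 0.62 in Las Bocas agria females, with 5 of 6 called higher. Without the low arrays 1 of 6 was called, FBtr0168501, and the median was 0.65. The second cluster, with 11 members, had a median of 0.23 in Punta Prieta and -0.2 in Las Bocas agria females, with 1 member called higher and 1 lower. Without the low arrays its median was 0.07, 10 of the 11 were positive and 0 were called. Its mean read 11.63, 12.17 and 11.92 on the 3 low arrays and 12.48, 12.62 and 12.46 on the other 3 mated arrays, against 11.99 to 12.61 on the virgin arrays. The 4 members in no cluster had a median of -0.26 in Las Bocas agria females, with 0 called higher and 1 called lower.

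**Figure D5:**
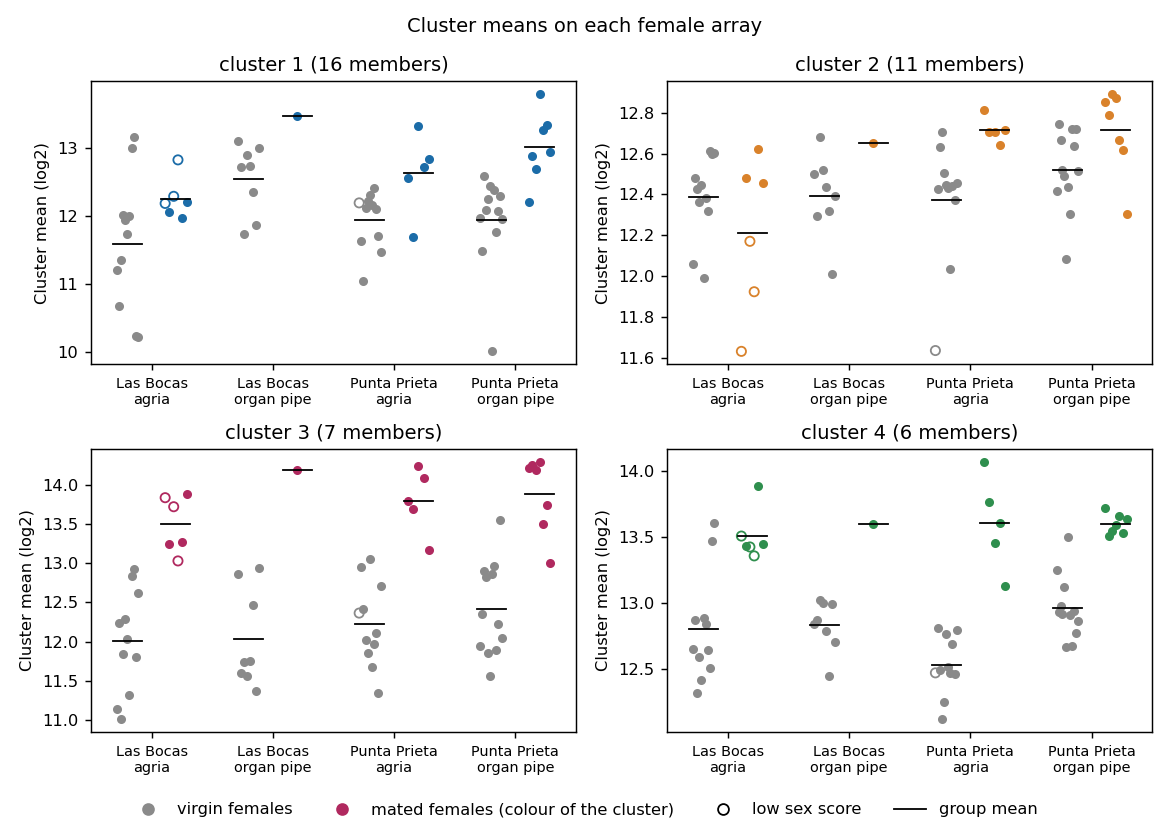
Mean log2 level of each cluster on each female array used, by population and rearing cactus; grey points are virgin and coloured points mated females, open points have a low sex score and lines are group means. In the third cluster mated Las Bocas agria arrays (13.03 to 13.88) lie above the virgin ones (11.01 to 12.92), and in the first cluster the virgin arrays (10.22 to 13.17) enclose the mated ones.

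Mated and virgin males were compared in the same way. The mean of the members was 9.3, 9.57 and 9.66 (lowest, median and highest) on the 5 mated and 9.3, 9.49 and 9.61 on the 13 virgin Las Bocas agria male arrays, and these ranges overlapped almost wholly. In Las Bocas agria males 0 members passed the limma test, against 0.227% of all transcripts, and 2 members had an unadjusted p below 0.05, 1 in each direction, against 4.22% of all transcripts higher and 1.18% lower. The median difference was 0.08, against 0.01 over all transcripts. In Punta Prieta males 1 member rose and 1 fell, while 7.01% of all transcripts were called higher and 3.8% lower, and 0 members passed without the arrays of replicate number 1 or number 2. FBtr0161898 read 9.79, 10.1 and 10.48 on the 5 mated and 9.59, 9.77 and 10.4 on the 12 virgin Punta Prieta agria male arrays, and 10.06, 10.25 and 10.43 on the 10 mated and 9.32, 9.97 and 10.3 on the 15 virgin organ pipe ones. The groups overlapped on both cacti, with a difference of 0.32 (SE 0.108, limma adjusted p = 0.0421). FBtr0161297, a member of the third cluster, read 8.88, 9.55 and 9.94 on the mated and 8.95, 9.91 and 10.3 on the virgin agria arrays, and 8.62, 8.96 and 9.61 on the mated and 8.65, 9.57 and 10.93 on the virgin organ pipe arrays. Its difference was -0.44 (SE 0.141, limma adjusted p = 0.0276). The median over the members was -0.08.

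The mating differences of Las Bocas agria females and males were set against each other directly. The difference between them passed the limma test for 5 members, all with the larger value in females, against 0.805% of all transcripts called in that direction and 1.15% in the other. The median over the members was 0.26, against -0.07 over all transcripts. Of the 5, 4 belonged to the third cluster and 1 to the fourth. Members of the third cluster vary together, so the 4 are not separate results. FBtr0168945 read 8.34, 8.62 and 8.71 on the mated and 8.14, 8.59 and 8.91 on the virgin male arrays, and the female difference exceeded the male one by 1.97 (SE 0.471, limma adjusted p = 0.0198). FBtr0162051 read 8.86, 9.55 and 9.81 on the mated and 8.91, 9.58 and 10.42 on the virgin male arrays, and its excess was 1.82 (SE 0.432, adjusted p = 0.0191). Without the 4 low arrays the values were 1.8 (adjusted p = 0.654) and 1.63 (adjusted p = 0.756), and 0 members were called. With all 137 arrays as labelled 0 were called as well.

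Mated flies were not used for the sex criterion. In mated Las Bocas agria flies all 44 members were higher in females, against 40.9% of all transcripts, and so were all 116 falling and all 128 steady transcripts. The difference of the members ran from 1.66 to 5.36 with a median of 3.01, against medians of 2.05 over the falling and 2.11 over the steady transcripts. The low arrays entered these medians. Without them the mated female mean went from 12.28 to 12.51 for the falling and from 12.34 to 12.59 for the steady transcripts. For the members it went from 12.54 to 12.59. The largest belonged to FBtr0168501, which read 13.47 to 14.42 on the 6 mated female and 8.44 to 8.91 on the 5 mated male arrays, a difference of 5.36 (SE 0.27, limma adjusted p = 5.14e-38). FBtr0172526 read 13.05 to 14.21 in mated females and 8.34 to 9.4 in mated males, a difference of 4.82 (SE 0.348, limma adjusted p = 1.85e-25).

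Rearing cactus was compared in virgin females of Las Bocas, as organ pipe minus agria. No member (0) passed the limma test, and neither did any other transcript (0%). With array weights 8 members and 13 transcripts in all passed, and with no term for development time 5 members and 6 transcripts in all, with every one of these members higher on organ pipe. The median over the members was 0.03, and the range from -0.86 to 1.6. At an unadjusted p below 0.05, 14 members were higher on organ pipe, against 2.35% of all transcripts, and 2 were lower, against 4.41%. All 14 belonged to the first cluster, where 16 of 16 differences were positive with a median of 0.85. That cluster was formed by correlation over virgin female arrays, these among them, with a median r of 0.89 within Las Bocas. Its members vary together, so the 14 are not separate results. The mean of that cluster was 11.73, 12.73 and 13.1 on the 8 organ pipe arrays and 10.22, 11.73 and 13.17 on the 11 agria arrays of Las Bocas, so the groups overlapped. Of the 11 virgin agria arrays left out in turn, replicates 1 and 2 of 16 days, which had the highest means of that cluster, brought 3 members (of 3 transcripts in all) and 6 members (of 9 in all) past the threshold. Taking out the highest agria arrays necessarily raises this difference, so these counts are no support for it. In Punta Prieta virgin females, whose level entered the rule, the cluster mean was 11.94 ± 0.424 (SD, n = 11) on agria and 11.95 ± 0.684 (SD, n = 12) on organ pipe. In virgin males 0 members passed the test of cactus, against 2.29% of all transcripts, and 0 had an unadjusted p below 0.05.

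Between virgin males of the 2 populations, as Punta Prieta minus Las Bocas, 4 members were higher and 2 lower, against 6.47% and 9.31% of all transcripts. With all 137 arrays as labelled 1 member passed, lower in Punta Prieta, and without the arrays of replicate number 2, 3 members passed. The largest was FBtr0163029, at 0.35 (SE 0.101, limma adjusted p = 0.00915). Its 4 virgin male groups ran from 8.6 to 10.28 and 9.17 to 10.13 in Las Bocas, and from 9.08 to 10.37 and 9.15 to 10.92 in Punta Prieta, on agria and organ pipe in turn. The most negative was FBtr0175198, at -0.54 (SE 0.118, limma adjusted p = 0.000273), with 8.76 to 10.51 and 8.93 to 10.36 in Las Bocas and 8.67 to 10.26 and 7.98 to 9.73 in Punta Prieta. FBtr0171963 was at 0.32 and FBtr0171838 at -0.38, with limma adjusted p-values of 0.000795 and 9.18e-05. The groups overlapped for the 2 members whose ranges are given.

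A longer development time was compared as a linear slope per day. In Las Bocas females 0 members passed the limma test, as did 0% of all transcripts, and 6 members had an unadjusted p below 0.05, all of them with positive slopes, against 3.98% of all transcripts with positive and 4.55% with negative ones. The median slope was 0.09 per day and the range from -0.2 to 0.46. The steepest slope was that of FBtr0168945, 0.46 per day (SE 0.155, limma adjusted p = 0.562), and 4 of the 6 belonged to the third cluster. Members of that cluster vary together, so the 4 are not separate results. In males 0 members passed, against 0% of all transcripts, and 0 had an unadjusted p below 0.05.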

How the data were processed

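The authors deposited log2 expression values, 1 for each of 14528 transcripts on each of 137 arrays. Per the submitters' processing notes they were made with RMA, which corrects background, equalises the distributions of arrays and summarises probes. The sources used here give neither its version nor its settings. Equalised distributions hide changes of total RNA. Array medians ran from 11.24 to 11.5, and 0 arrays were identical. Detection calls and slide positions were not analysed here, and no batch was tested. The number of arrays limits the precision.

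Groups came from the titles. A limma model (version 3.58.1, R 4.3.3, lmFit and eBayes) on 135 arrays held a mean for each combination of population, cactus, sex and mating state and a slope per day for each sex and population. Benjamini-Hochberg adjustment ran over all transcripts, with a threshold of 0.05. The script was tested on simulated data. The members, the classes for comparison and the tests were chosen with earlier results of these data known. In each tested comparison, the text names by rule up to 2 members with the largest positive and 2 with the most negative differences past the threshold. FBtr0162041, FBtr0166497 and FBtr0168501 in the mating comparison, and the steepest development slope, were added after their values were seen.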

Additional observations from a re-analysis of the deposited data

Results flagged for a closer look

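The mating difference differed between the sexes in Las Bocas agria flies for 5 members, among them FBtr0168945 by 1.97 and FBtr0162051 by 1.82 (log2, limma interaction contrast), all larger in females, against 0.805% of all transcripts in that direction and 1.15% in the other. The count was 0 when the 4 female arrays of low score were left out and 0 with all 137 arrays as labelled.

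Means and named members were also screened for single arrays far from the rest of their group, in 15 groups of 4 or 5 arrays and 17 measures, 255 checks in all, and 16 were found; chance gives about 1 in 20. In females, the mean of the second cluster was 11.99 in virgin Las Bocas agria females of 15 days, replicate 4, against 12.36 to 12.45 in the others, and 12.32 at 16 days, replicate 1, against 12.6 to 12.61. In the same 16 day group FBtr0161898 read 12.15 in replicate 1 and FBtr0167449 read 12.78 in replicate 2. FBtr0171963 read 12.77 in a virgin Punta Prieta organ pipe female array of 15 days. In the mated Punta Prieta organ pipe males of 15 days, replicate 4 stood apart in the mean of the members (9.46), the mean of the second cluster (9.93) and FBtr0161297 (9.61). In virgin Punta Prieta agria males single arrays stood apart for FBtr0161898 (10.15), FBtr0162051 (10.46) and FBtr0172526 (9.27). In virgin Punta Prieta organ pipe males this held for FBtr0171838 (9.5) and FBtr0171963 (10.07). In virgin Las Bocas males it held for FBtr0167449 (9.81) and FBtr0168945 (8.5) on organ pipe and for FBtr0171838 (10.15) on agria.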

How the results depend on the processing

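The count of members past the threshold for mating in Las Bocas agria females (23) was 13 with all 137 arrays as labelled and 6 without the 4 arrays of low score, where FBtr0174352 turned to 0.011. It ran from 9 to 24 with each replicate number left out, from 15 to 29 with each mated array left out (15 without the 15 day array, replicate 2) and from 19 to 25 with each virgin array left out, an alternative added after seeing the data. The count for the difference between the sexes (5) was 0 with all arrays as labelled, 0 without the low arrays, 17 with array weights, 0 to 7 without each replicate number (0 without number 1, 2 without number 3) and 5 to 7 without each virgin array. For Punta Prieta males (2) it was 4 without the low arrays, 4 with dim transcripts left out, 6 with array weights, 4 in a fit of each sex alone, and 0 to 5 without each replicate number. For population in virgin males (6) it was 1 with all arrays as labelled and 3 to 6 without each replicate number. For cactus in Las Bocas virgin females (0) it was 8 with array weights, 5 with no term for development time and 0 to 6 without each virgin array. Array weights gave 1 for cactus in virgin males and 1 for development time in Las Bocas females, both 0 otherwise. The cause of these shifts was not tested. Replicate numbers were not treated as pairs, since the labels do not tie them to a shared culture and not every pair of arrays with the same number correlated: their deviations had a median r of 0.066, with 51 of 110 pairs over 0.1, against -0.027 and 110 of 301 pairs for different numbers. With the replicate number as a block the counts were 23 for Las Bocas agria females and 6 for the difference between the sexes, and no other count moved by over 1.5 times. All 44 members were higher in mated Las Bocas agria females than males under each alternative, or all 38 that were left under the filter on dim transcripts. The rule itself gave 38 to 47 members under the alternatives tried. Of the 44 members, 35 were kept without replicate number 1 and 40 without number 2. Without the Punta Prieta virgin female array of low score, which entered the rule, 41 were kept. A fit of each sex on its own gives no contrast of the sexes. Without detection calls, what signal over background limits is not known here.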
